A study of Mus musculus with 6 samples.

Results

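The gp130-type cytokine receptors, 2 of their ligands and the SOCS proteins that switch them off were followed as 10 genes, Il6st, Il6ra, Lifr, Osmr, Il11ra1, Lepr, Lif, Osm, Socs1 and Socs3. They were taken by symbol from the 44556 genes counted in each RNA-seq library, and none was dropped for its values. The choice of the 10 was made with earlier results of these data known. All 10 were listed, 8 had enough counts to be tested, and Lifr and Osm did not. The libraries came from parietal bone, a flat bone of the skull vault, of newborn C57BL/6 littermates, with 3 libraries labelled OsxCre and 3 labelled OsxCre;Stat3fl/fl. Both genotypes carried a Cre recombinase driven by the promoter of Osx (Sp7), a transcription factor of osteoblast precursors, and the OsxCre;Stat3fl/fl mice also had loxP sites around exons 18 to 20 of both Stat3 alleles. Deletion was therefore directed mainly to the osteoblast lineage, and in these libraries Stat3 was not measured by cell type. In cultured bone marrow mesenchymal stem cells of older OsxCre;Stat3fl/fl mice, the paper reports deletion of STAT3 by western blot. The comparison asked which transcripts differ when osteoblast-lineage cells lack STAT3. The study's methods give 3 mice per genotype, and neither they nor the labels say that each library is 1 mouse, so that p-values measure the spread between these libraries.

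gp130, encoded by Il6st, is the signalling subunit shared by the receptors for IL-6, IL-11, LIF and oncostatin M. A ligand is bound by its own receptor chain, which pairs with gp130, and JAK kinases attached to the receptors then phosphorylate STAT3, which enters the nucleus and switches on genes that include Socs3. SOCS3 binds gp130 and the leptin receptor and blocks further signalling, and in bone these cytokines act on osteoblasts and osteocytes and, through them, on osteoclasts.

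The libraries held between 8193651 and 12080044 counts on genes, and 3 counts, taken as the least a library can show, corresponded to 0.252 to 0.368 CPM, the counts scaled to a common library size with edgeR's TMM factors. Floors and single counts are given without an error estimate, and libraries of the same genotype differed beyond counting noise. Stat3 itself had 1575, 1357 and 1685 counts in the OsxCre libraries and 1273, 1262 and 1328 in those labelled OsxCre;Stat3fl/fl, which were smaller libraries. After allowing for library size, the OsxCre libraries stood at 150, 135 and 141 CPM of Stat3, below the 153, 155 and 155 CPM found with the floxed alleles. The genotypes thus lay apart for this gene, with a log2 fold change of 0.12 that did not pass (adjusted p = 0.442, edgeR's quasi-likelihood test). A count over the whole gene does not separate exons 18 to 20 and does not check the labels. The study describes male newborns, but all 6 libraries held 7333 to 12392 counts of Xist, which is expressed from the inactive X chromosome, and 0 or 1 count of each of the Y-linked genes Ddx3y, Kdm5d, Uty and Eif2s3y. Osteoblast genes were abundant, with 12 of 12 markers tested and a summed level of 26550 to 35102 CPM in OsxCre and 23894 to 30139 CPM in libraries labelled OsxCre;Stat3fl/fl, mostly from Col1a1 and Col1a2. Of the 12, 9 had a log2 fold change below 0, and Bglap, Bglap2 and Spp1 lay above it (0.17, 0.11 and 0.10). Ibsp, which encodes bone sialoprotein, fell (log2 fold change -0.66, adjusted p = 0.0213, edgeR's quasi-likelihood test), as did 0.481% of all genes tested. Alpl and Pth1r were lower at an unadjusted p under 0.05 (-0.54 and -0.33), as were 8.34% of all genes tested. Skeletal muscle genes were also abundant, with 13 of 13 markers tested, and their sum was higher in the second genotype without overlap, at 25756 to 27602 and 28573 to 42194 CPM respectively. Of these 13, 10 had a log2 fold change above 0 and 3 below 0. In a whole bone, fewer cells of a type and less RNA per cell cannot be told apart.

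By edgeR's quasi-likelihood test, 0 of the 8 genes tested passed an adjusted p of 0.05, where 1.26% of all 15600 genes did (0.776% higher and 0.481% lower in the libraries labelled OsxCre;Stat3fl/fl). The receptor chains Osmr, Il6ra and Lepr had the smallest p-values, and each had 3 OsxCre;Stat3fl/fl values above all 3 OsxCre values. The shared subunit Il6st, the IL-11 receptor chain Il11ra1 and the ligand Lif overlapped between genotypes. Socs3 lay higher and Socs1 lower, without overlap by TMM scaling only and without passing the test. Among all genes tested, 23% did not overlap between genotypes, 10.8% higher and 12.2% lower. Lifr was at or near 0 counts in every library.

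**Figure D1:**
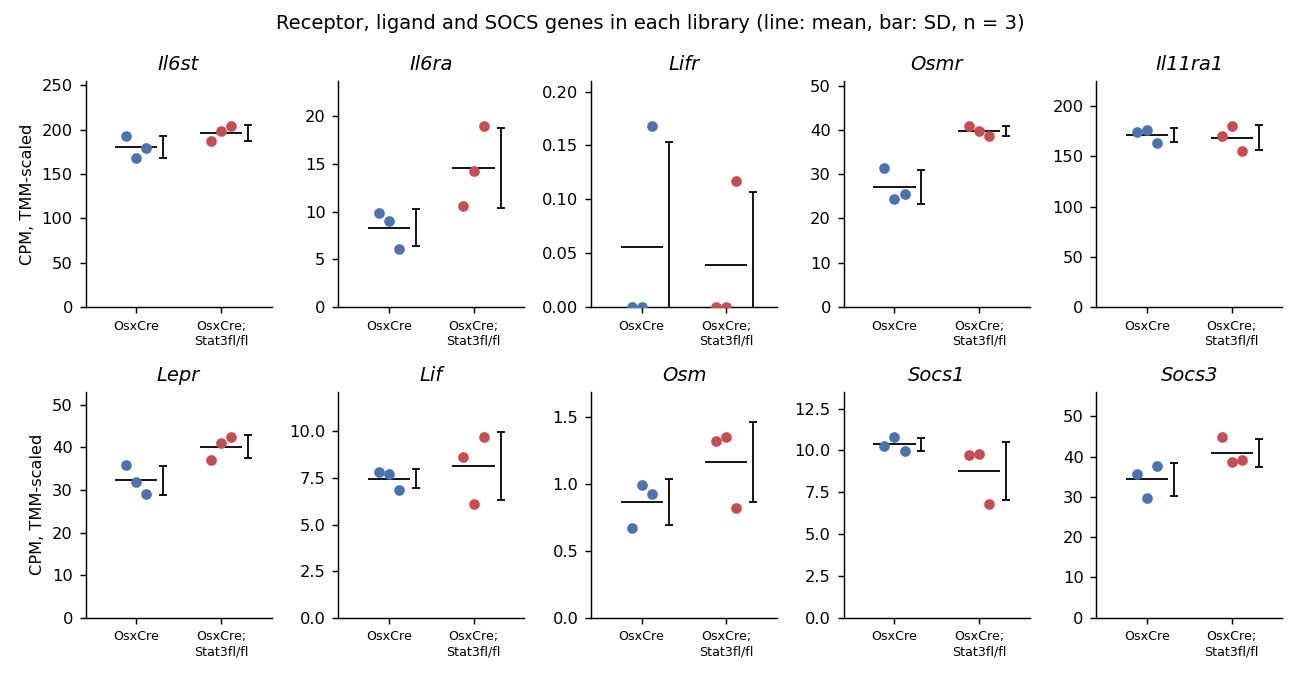
Level of each of the 10 genes in every library, in TMM-scaled CPM on a linear axis that starts at 0, with a line at the mean and a bar for the SD of 3 libraries per genotype. With this scaling, Osmr, Il6ra, Lepr and Socs3 lie higher and Socs1 lower in the libraries labelled OsxCre;Stat3fl/fl without overlap (by library totals Socs3 and Socs1 overlap), and Lifr does not exceed 0.168 CPM. Of all genes tested, 23% do not overlap (10.8% higher and 12.2% lower).

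Il6st, which encodes gp130 and lies at chr13:113265216-113297068 of NCBIM37 (mm9), had 193, 169 and 180 CPM in OsxCre libraries 1, 2 and 3, and 187, 199 and 204 CPM in OsxCre;Stat3fl/fl libraries 1, 2 and 3. The genotypes overlapped, since OsxCre library 1 exceeded OsxCre;Stat3fl/fl library 1. The log2 fold change of OsxCre;Stat3fl/fl over OsxCre was 0.12 (SE 0.08, adjusted p = 0.502, edgeR's quasi-likelihood test), and its 95% interval as a fold ran from 0.957 to 1.24. The gene had 1555 to 2143 counts per library.

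Osmr encodes the oncostatin M receptor chain, which pairs with gp130 and in the mouse is the receptor through which oncostatin M acts on most cells. The gene lies at chr15:6763577-6824313, 255 kb from Lifr. It had 31.5, 24.5 and 25.5 CPM in OsxCre libraries 1, 2 and 3, and 40.8, 39.8 and 38.7 CPM in those labelled OsxCre;Stat3fl/fl. Every OsxCre;Stat3fl/fl value was above every OsxCre value, and the 3 OsxCre;Stat3fl/fl values lay close together, with means of 27.2 ± 3.79 and 39.8 ± 1.06 CPM (SD, n = 3 each). The fold was 1.46 (95% interval 1.22 to 1.75), the log2 fold change 0.55 (SE 0.11), and the adjusted p 0.0683 in edgeR's quasi-likelihood test, the smallest among the 8 genes. This call depended on the procedure, as DESeq2's Wald test gave an adjusted p of 0.0168 and the edgeR test without the filter on low counts 0.0307. The remaining 12 of 14 alternatives gave values above 0.05, up to 0.196, with log2 fold changes between 0.48 and 0.67 over all 14.

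Il6ra encodes the IL-6-binding chain, which is made by few cell types, and lies at chr3:89673246-89717084. Its values were 9.80, 9.02 and 6.13 CPM in OsxCre and 10.6, 14.2 and 18.9 CPM in OsxCre;Stat3fl/fl. The genotypes did not overlap, but the OsxCre;Stat3fl/fl values were spread widely, and library 3 of that genotype was the highest. The log2 fold change of 0.81 (SE 0.26) was the largest of the 8 genes, with an interval of 0.21 to 1.41 and an adjusted p of 0.179 in edgeR's quasi-likelihood test. Without OsxCre;Stat3fl/fl library 3 the log2 fold change was 0.58 (adjusted p = 0.425).

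Lepr encodes the leptin receptor, a gp130-like chain that signals as a dimer without gp130 and in bone marks perivascular stromal cells. The gene, at chr4:101390009-101487957, had 35.9, 31.8 and 29.1 CPM in OsxCre and 37.1, 40.9 and 42.5 CPM in OsxCre;Stat3fl/fl. The groups were separated by a narrow gap between 35.9 and 37.1 CPM. The log2 fold change was 0.32 (SE 0.11, 95% interval 0.07 to 0.56, adjusted p = 0.194, edgeR's quasi-likelihood test). Lep, which encodes leptin, the ligand of this receptor, had 9, 8 and 16 counts in OsxCre and 1, 2 and 2 counts in OsxCre;Stat3fl/fl, too few to be tested, and it is named here because its values were seen to be separated. Leptin is made by adipocytes, and the 6 adipocyte markers summed to 1025 to 2871 CPM in OsxCre and 1256 to 2453 CPM in OsxCre;Stat3fl/fl, which overlapped.

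Il11ra1 encodes the IL-11-binding chain and had 175, 176 and 163 CPM in OsxCre and 170, 180 and 155 CPM in OsxCre;Stat3fl/fl. The ranges lay over one another, and the log2 fold change was -0.02 (SE 0.08, 95% interval -0.21 to 0.16, adjusted p = 0.922, edgeR's quasi-likelihood test). The annotated gene spans chr4:41647021-41716347 and shares 8 exonic bases with Ccl27a on the opposite strand. A close copy, Il11ra2, was counted separately with 8 to 18 counts per library, and how reads that fit both copies were assigned is not given in the sources used here.

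Lifr encodes the LIF receptor chain, used by LIF and, in part, by oncostatin M, and lies at chr15:7079559-7147489. It had 0, 0 and 2 counts in the OsxCre libraries and 0, 0 and 1 counts in those labelled OsxCre;Stat3fl/fl. Both genotypes were at or under the floor of 3 counts in every library, so that no fold is given. A listed 0 is not taken here to mean that a gene is silent. Hbb-b1, a haemoglobin gene, was also listed at 0 in all 6 libraries, while Hba-a1, its partner in haemoglobin, had 8974 to 41504 counts. Neither the reason for the 0 of Hbb-b1 nor whether the authors' counting lost reads of Lifr was tested.

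The 3 receptor chains that lay higher were also set against gp130 of the same library, a ratio that does not depend on how libraries are scaled. The ratios use the same counts, and Il6st had a log2 fold change of 0.12, so they largely restate the differences above. The share of all genes that lie apart in such a ratio was not computed. For every 100 counts of Il6st, the OsxCre libraries held 16.3, 14.5 and 14.2 counts of Osmr and the OsxCre;Stat3fl/fl libraries 21.9, 20.02 and 19.0. Il6ra had 5.07, 5.35 and 3.41 counts per 100 in OsxCre and 5.66, 7.15 and 9.29 in OsxCre;Stat3fl/fl, and Lepr had 18.6, 18.9 and 16.2 against 19.9, 20.6 and 20.8. The differences in mean log2 ratio were 0.44 for Osmr, 0.67 for Il6ra and 0.20 for Lepr, none with overlap. Each had an exact permutation p of 0.1, two-sided, which is the smallest that 3 libraries against 3 allow, and 0.167 after adjustment over the 5 ratios computed. The ratios of Il11ra1 (90.3, 104 and 90.9 against 91.1, 90.4 and 76.1) and Socs3 (18.5, 17.7 and 20.9 against 24.1, 19.5 and 19.3) overlapped, with differences in mean log2 ratio of -0.15 and 0.13 and exact permutation p-values of 0.5 and 0.4. Ratios with Lifr were left out, since Lifr had under 10 counts in every library.

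**Figure D2:**
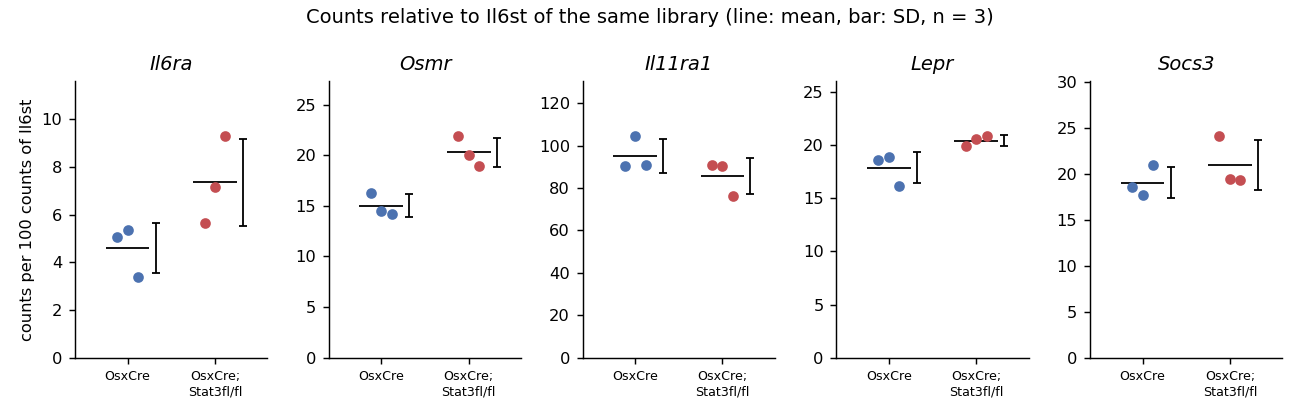
Counts of 5 genes for every 100 counts of Il6st in the same library, on linear axes that start at 0, with a line at the mean and a bar for the SD of 3 libraries per genotype. The ratios of Il6ra, Osmr and Lepr are higher in the libraries labelled OsxCre;Stat3fl/fl without overlap, and those of Il11ra1 and Socs3 overlap.

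The ligand Lif, a cytokine made by osteoblasts among other cells, lies at chr11:4157560-4172517, 16.5 kb from Osm at chr11:4136423-4141029. Lif had 7.80, 7.73 and 6.88 CPM in OsxCre and 8.65, 6.13 and 9.71 CPM in OsxCre;Stat3fl/fl. The OsxCre;Stat3fl/fl values lay on both sides of the OsxCre values, with a log2 fold change of 0.13 (SE 0.21, 95% interval -0.35 to 0.61, adjusted p = 0.816, edgeR's quasi-likelihood test). Osm encodes oncostatin M, which in bone is made mainly by macrophages, neutrophils and lymphocytes. It had 7, 10 and 11 counts in OsxCre and 11, 11 and 7 counts in OsxCre;Stat3fl/fl, or 0.666 to 0.991 and 0.819 to 1.35 CPM, which overlapped. With no filter on low counts its log2 fold change was 0.42, with a 95% interval of -0.50 to 1.34 (adjusted p = 0.733, edgeR's quasi-likelihood test), so that a difference of the size of that of Osmr was not detectable for Osm at this depth. The summed level of 9 listed macrophage and osteoclast markers was 2611 to 2984 CPM in OsxCre and 2400 to 3097 CPM in OsxCre;Stat3fl/fl, mostly from the osteoclast genes Ctsk, Mmp9 and Acp5. Of the 9, 6 had a log2 fold change above 0 and 3 below 0. The macrophage gene C1qb rose (log2 fold change 0.50, adjusted p = 0.0253, edgeR's quasi-likelihood test), as did 0.776% of all genes. Cd68 was higher at an unadjusted p under 0.05 (0.24), as were 8.03% of all genes. C1qa, Csf1r, Mrc1 and Lyz2 overlapped between genotypes (0.12, 0.16, 0.53 and -0.10). The summed level of 8 neutrophil markers was lower without overlap, at 277 to 478 and 118 to 196 CPM.

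Socs3 encodes the inhibitor that acts on gp130 and is itself a target of STAT3. It lies at chr11:117827393-117831361, 17.0 Mb from Stat3 on the same chromosome. Its values were 35.8, 29.8 and 37.6 CPM in OsxCre and 44.9, 38.7 and 39.3 CPM in OsxCre;Stat3fl/fl. The groups did not overlap, with 37.6 CPM as the highest OsxCre and 38.7 CPM as the lowest OsxCre;Stat3fl/fl value, but they overlapped when scaled by library totals (37.1 and 36.03 CPM). The log2 fold change was 0.25 (SE 0.11, 95% interval -0.01 to 0.51, adjusted p = 0.324, edgeR's quasi-likelihood test), and the lower bound as a fold was 0.993. With TMM scaling and all libraries, a decrease of Socs3 past that bound lay outside the interval. The log2 fold change was 0.21 with library totals and 0.16 without OsxCre library 2, and no interval is given for these. Socs1, at chr16:10783901-10785629, encodes an inhibitor of JAK kinases that is best known for restraining interferon signalling. It had 10.3, 10.8 and 9.99 CPM in OsxCre and 9.73, 9.81 and 6.78 CPM in OsxCre;Stat3fl/fl. Every OsxCre;Stat3fl/fl value was below every OsxCre value, with library 3 of that genotype lowest, but by library totals the highest of these, 9.89 CPM, passed the lowest OsxCre value, 9.85 CPM. The log2 fold change was -0.24 (SE 0.18, 95% interval -0.66 to 0.18, adjusted p = 0.568, edgeR's quasi-likelihood test), and -0.08 without that library.

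Since STAT3 binds DNA at pairs of TTC and GAA, the promoters of the 10 genes were searched for TTCNNNGAA, for its tighter form TTCCNGGAA and for TTC and GAA with 4 bases between them, in 300 bases around each GENCODE start of a protein-coding gene on NCBIM37, from 250 before to 50 after the start. Each motif reads the same on both strands, and the tighter form is contained in TTCNNNGAA. The bases before the Socs3 start are shown because they hold the tighter form, in capitals, and those before the Osmr start because Osmr had the smallest p and held none of the motifs. Both genes are on the minus strand, and the sequences read 5′ to 3′ in the direction of the gene, at chr11:117830501-117830750 and chr15:6824314-6824563.
Socs3: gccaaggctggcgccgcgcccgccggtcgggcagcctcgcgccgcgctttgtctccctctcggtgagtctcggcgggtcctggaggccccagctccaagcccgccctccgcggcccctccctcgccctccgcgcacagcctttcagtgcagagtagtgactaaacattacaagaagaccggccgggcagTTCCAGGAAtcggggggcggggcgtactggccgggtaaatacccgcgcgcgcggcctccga
Osmr: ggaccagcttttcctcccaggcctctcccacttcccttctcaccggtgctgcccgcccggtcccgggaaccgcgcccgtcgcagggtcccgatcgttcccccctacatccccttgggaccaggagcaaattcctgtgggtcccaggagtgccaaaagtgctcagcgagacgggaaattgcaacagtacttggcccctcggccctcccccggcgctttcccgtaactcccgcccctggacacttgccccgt
The TTCCAGGAA of Socs3 lies 61 to 53 bases before the start of Socs3-001, at chr11:117830553-117830561. The tighter form was in 1.12% of 70021 windows, or at some start of 2.34% of 22238 genes, and Socs3 was the only one of the 10 genes with it. TTCNNNGAA was in 7.54% of windows, or for 15.8% of genes. Among the 10 genes it was found for Socs3, also as TTCTTAGAA before another start, and for Il11ra1 as TTCATCGAA 37 to 29 bases before one of its starts. The form with 4 bases between TTC and GAA was in 6.48% of windows, or for 13.7% of genes, and among the 10 genes only for Lepr, as TTCCGGAGAA. In RefSeq's promoter table for GRCm38.p6, which has windows for 9 of the 10 genes and begins Socs3 180 bases further upstream, only the TTCTTAGAA of Socs3 was found, and TTCNNNGAA was in 8.30% of 32851 windows, or for 9.55% of genes. These matches describe letters in the windows, and binding was not measured.

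Compared per kilobase of the longest annotated transcript, the order of levels in OsxCre was Il11ra1 (65.8 ± 2.64 CPM per kilobase), Il6st (34.7 ± 2.37), Socs3 (13.5 ± 1.59), Socs1 (8.49 ± 0.341), Lepr (5.82 ± 0.613), Osmr (5.62 ± 0.783), Il6ra (2.49 ± 0.579), Lif (1.86 ± 0.127), Osm (0.379 ± 0.0755) and Lifr (0.00579 ± 0.0100), as means ± SD of 3 libraries. Neighbours in this order had separate ranges except Lepr and Osmr, and Il6ra and Lif, whose ranges overlapped. Lifr was under the floor of 3 counts in every library, so its level was not resolved. In OsxCre;Stat3fl/fl, Osmr stood at 8.23 ± 0.219 CPM per kilobase, above Lepr at 7.25 ± 0.497 and Socs1 at 7.19 ± 1.41 (SD, n = 3), and its range was apart from that of Lepr. The range of Socs1 overlapped those of Lepr and Il6ra there, and the other neighbours were apart. The other genes kept their places, with 64.6 ± 4.78 for Il11ra1, 37.7 ± 1.70 for Il6st, 16.1 ± 1.34 for Socs3, 4.36 ± 1.26 for Il6ra, 2.03 ± 0.456 for Lif, 0.512 ± 0.131 for Osm and 0.00404 ± 0.00699 for Lifr. The order of Il11ra1 and Il6st depended on the length used. Per kilobase of all annotated exons merged, Il11ra1 had 38.3 and Il6st 34.7 CPM in OsxCre, and 37.7 CPM each in OsxCre;Stat3fl/fl, with overlapping ranges in both genotypes, and Osmr stood above Lepr in OsxCre as well. Per kilobase of coding sequence, Lif, with its short coding sequence, had 12.3 CPM in OsxCre, above Osmr at 9.33 and Lepr at 9.26. With all 3 lengths, Il11ra1 and Il6st stood above the other 8 genes in every library.

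**Figure D3:**
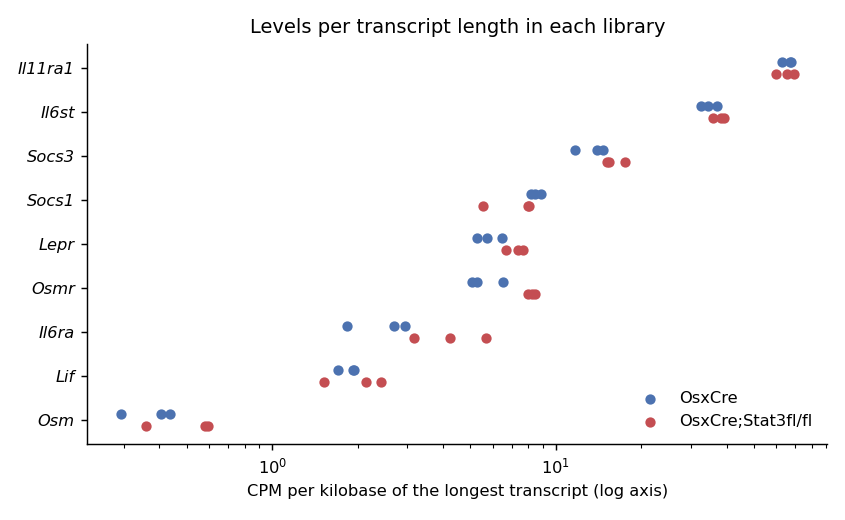
Level of each gene per kilobase of its longest annotated transcript, in CPM per kilobase on a log axis, with a point for every library of both genotypes. Lifr, listed at 0 in 4 of the 6 libraries, is left off the log axis, and the genes span the range from Il11ra1 at 65.8 to Osm at 0.379 CPM per kilobase (OsxCre means).

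Taken by count, 3 of the 8 genes tested had an unadjusted p under 0.05, all 3 higher in the libraries labelled OsxCre;Stat3fl/fl, where 16.4% of all genes had one (8.03% higher and 8.34% lower). The genotypes did not overlap for 5 of the 8, with 4 higher (Il6ra, Osmr, Lepr and Socs3) and 1 lower (Socs1), where 23% of all genes did not overlap (10.8% higher and 12.2% lower). By library totals in place of TMM, Socs3 and Socs1 overlapped, which left 3 of the 8, beside 23.6% of all genes. The log2 fold change was above 0 for 6 of the 8 and below 0 for Il11ra1 and Socs1, with a median of 0.19 beside -0.0037 for all genes tested. With library totals, the share of higher genes among those with an unadjusted p under 0.05 was 34.9% in place of 49.0% (924 higher and 1727 lower in place of 1252 and 1301), and the median of all genes was -0.05, with 3 of the 8 genes again higher at an unadjusted p under 0.05. Besides skeletal muscle, the marker lists that lay apart between genotypes were those of neutrophils, given above, and of erythroid cells, whose 6 markers (1 listed at 0 everywhere) summed to 2232 to 3779 CPM in OsxCre and 1175 to 2083 CPM in OsxCre;Stat3fl/fl. Of the 13 muscle markers 7 were higher and 1 lower at an unadjusted p under 0.05, and 5 of 6 tested neutrophil markers were lower. By edgeR's quasi-likelihood test, Myh3 rose (log2 fold change 1.71, adjusted p = 0.0204) while Myh4 fell (-3.61, adjusted p = 3.87e-05). The muscle list thus did not move in a single direction, though its median log2 fold change was 0.50. The neutrophil gene S100a9 also fell (-1.25, adjusted p = 0.0423). The part of these cell types in the values of Osmr, Il6ra, Lepr and Socs3 was not tested.

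**Figure D4:**
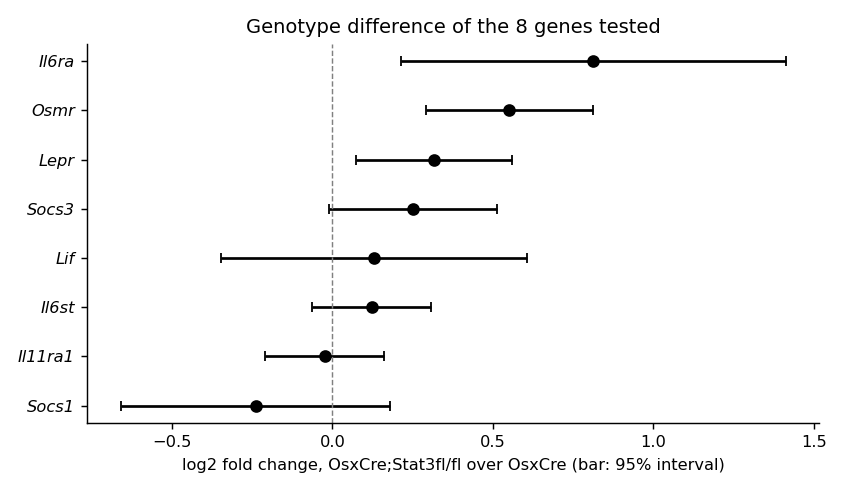
Log2 fold change of OsxCre;Stat3fl/fl over OsxCre for the 8 genes tested, with bars for the 95% interval of edgeR's quasi-likelihood test. The intervals of Il6ra, Osmr and Lepr lie above 0, that of Socs3 runs from -0.01 to 0.51, and no gene passes an adjusted p of 0.05.

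Of 25 genes known to respond to gp130 and STAT3, 23 were tested, and 3 rose and none fell at the adjusted threshold (0.776% and 0.481% of all genes), with a median log2 fold change of 0.16 beside -0.0037 for all genes. The list was written with earlier results of these data known, so these shares do not test whether response genes differ from other genes. Serpina3n, an acute-phase protease inhibitor, had 2.76, 3.77 and 2.85 CPM in OsxCre and 27.0, 16.7 and 23.7 CPM in OsxCre;Stat3fl/fl. All 3 OsxCre;Stat3fl/fl values were far above the OsxCre values, with a log2 fold change of 2.84 (SE 0.23, adjusted p = 0.0036, edgeR's quasi-likelihood test). Cebpd, a transcription factor induced by IL-6-type cytokines, rose from 25.03, 19.2 and 22.5 CPM to 47.1, 60.1 and 46.3 CPM (log2 fold change 1.20, SE 0.14, adjusted p = 0.0142, edgeR's quasi-likelihood test). Zfp36, which encodes tristetraprolin, a protein that promotes the decay of cytokine mRNAs, rose from 17.1, 16.4 and 21.9 CPM to 30.02, 34.6 and 31.5 CPM (log2 fold change 0.79, SE 0.13, adjusted p = 0.0423, edgeR's quasi-likelihood test). Cebpd lost its call without OsxCre;Stat3fl/fl library 3 (adjusted p = 0.0715), and Zfp36 when any library but OsxCre library 3 was left out (adjusted p between 0.0848 and 0.157). At an unadjusted p under 0.05, 10 of the 23 were higher and 4 lower (8.03% and 8.34% of all genes).

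Of 11 other ligand genes of the family, 5 were tested and none passed at either threshold, with a median log2 fold change of -0.09. The smallest p-values were those of Clcf1 (log2 fold change 0.36, adjusted p = 0.407) and Ebi3 (-0.48, adjusted p = 0.423), and Il6 had 1 to 4 counts per library. None of 4 other receptor genes passed, with Il31ra, a gp130-like chain that pairs with Osmr in the IL-31 receptor, at 0.761, 0.595 and 1.17 CPM in OsxCre and 2.04, 1.35 and 2.22 CPM in OsxCre;Stat3fl/fl, from 6 to 19 counts per library (log2 fold change 1.12, SE 0.37, adjusted p = 0.192). Both chains of the IL-31 receptor lay higher without overlap, as did 10.8% of all genes tested, and neither passed the test. Each is named because it had the smallest p of its list, so the pair is not a result about this receptor. Il31, which encodes the ligand, was listed at 0 counts in every library. Il27ra, the other gene named, was at -1.09 on the log2 scale (adjusted p = 0.376). None of 15 other SOCS genes and JAK-STAT inhibitors passed (median 0.03), with Socs5, which restrains signalling by cytokine and EGF receptors, at -0.27 (adjusted p = 0.175) and Cish, a target of STAT5, at -0.44 (adjusted p = 0.529). None of the 10 JAK and STAT genes tested of 11 passed (median 0.08), with Stat2 at 0.22 (adjusted p = 0.36), all from edgeR's quasi-likelihood test. Over these 4 lists, no gene passed the adjusted threshold by DESeq2's Wald test or by limma-voom, while Il31ra was among the higher genes and Socs5 the lower gene at an unadjusted p under 0.05.

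**Figure D5:**
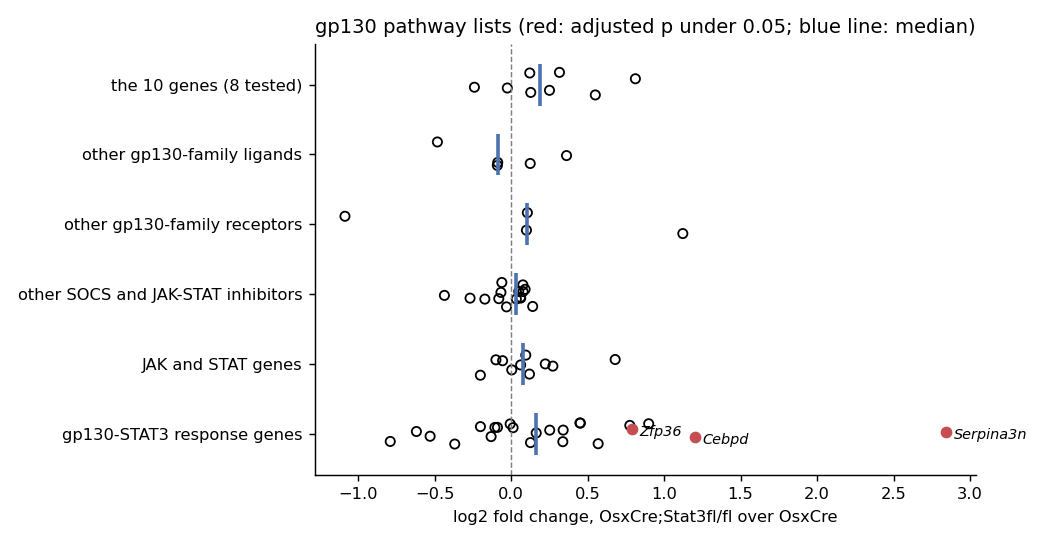
Log2 fold change of OsxCre;Stat3fl/fl over OsxCre for every gene tested of the 10 genes and of 5 further lists of the pathway, with a blue line at the median of each list and filled red points for an adjusted p under 0.05. The 3 red points are Serpina3n at 2.84, Cebpd at 1.20 and Zfp36 at 0.79, all in the list of response genes.

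The genes whose pattern over the 6 libraries was most like that of Osmr were Slc24a4, Vim, Cybrd1, Klhl34 and Pcdhga7, with root mean square distances of 0.0373 to 0.0595 between centred log2(CPM + 1) values. Vim, which encodes the mesenchymal intermediate filament vimentin, had 1823, 1431 and 1422 CPM in OsxCre and 2251, 2355 and 2099 CPM in OsxCre;Stat3fl/fl, with a log2 fold change of 0.52 (adjusted p = 0.106, edgeR's quasi-likelihood test). Vim was picked for its likeness to Osmr in these libraries. That it shares the highest OsxCre library, library 1, and the lack of overlap follows from this choice. Slc24a4 and Klhl34 had 15 to 24 and 6 to 13 counts per library, few enough that their rank in likeness is uncertain.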

How the data were processed

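RNA was taken from parietal bone of newborn OsxCre and OsxCre;Stat3fl/fl littermates, with 3 libraries per genotype and genotypes and replicate numbers from the sample labels. Libraries were made with an Illumina TruSeq kit that does not mark strand. The labels give polyA RNA and the paper total RNA. The authors deposited whole-number counts per gene symbol for each library, without normalization. The paper names TopHat and mm9, whereas the submitters' processing notes name HISAT2 and GRCm38. The counting program, gene annotation and treatment of reads that map to several genes are not given in the sources used here.

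From the counts, genes were kept by filterByExpr of edgeR 4.0.16 (minimum count 10, minimum total 15; R 4.3.3), libraries were scaled by TMM, and genotypes were compared in a two-sided quasi-likelihood fit, with p-values adjusted by Benjamini-Hochberg over all genes tested and called under 0.05. The study's Cuffdiff on FPKM could not be run on gene counts. SEs were taken from the F statistic. Ratios and single values were compared by exact permutation. Levels per kilobase and positions used GENCODE vM1 on NCBIM37, where all 10 genes had a length. Promoter sequences were read from NCBIM37, as mm9 is the build of the paper, and from RefSeq's table.

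The 10 genes and all lists were chosen with earlier results of these data known. Named are the 10 genes, Stat3, in each list every gene called and the 2 with the smallest p, and the 5 most like the gene with the smallest p. A gene that this rule names is not reported here. Lep, Il31 and the genes given as checks were named after their values were seen. Alternatives were other scalings, other filters, DESeq2 1.42.0, limma-voom (limma 3.58.1), the replicate number as a block, leaving out each library and other lengths. Same-numbered libraries did not deviate together (correlations of -0.10, -0.53 and -0.07), so the numbers were not taken as pairs. Pairs of libraries of one genotype differed beyond counting noise. On simulated counts for the same comparison over 15600 genes, 53.9% of 191 genes changed 2-fold were recovered, with 3 other calls. Plots were drawn in matplotlib 3.10.9 (Python 3.11.15), and tables joined in pandas 2.3.3.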

Additional observations from a re-analysis of the deposited data

How the results depend on the processing

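Of 112 values of the 8 tested genes under 14 alternatives each, 108 kept their direction and side of the adjusted threshold. Osmr passed it in the edgeR test with no filter beyond a count above 0 and in DESeq2's Wald test, so that 1 of the 10 genes was called there in place of 0. The 2 reversals were in genes that were not called and came without OsxCre;Stat3fl/fl replicate 3, where Il11ra1 had a log2 fold change of 0.032 and Lif of -0.014. Over the 6 fits that left out a library, Il11ra1 ranged from -0.068 to 0.032 and Lif from -0.014 to 0.30. Among all genes, 196 were called, 428 with no filter, 538 with DESeq2 and 12 to 103 when a library was left out, lowest without OsxCre;Stat3fl/fl replicate 3. Over the pathway lists the 3 calls were 7 with DESeq2 and 1 to 4 when a library was left out. Without OsxCre;Stat3fl/fl replicate 3 only Serpina3n was called, and Cebpd had an adjusted p of 0.0715. Zfp36 lost its call in 5 of the 6 fits, with adjusted p-values up to 0.157. With the replicate number as a block, which shares only a number between libraries, 1 of all genes, 0 of the 10 genes and 0 of the pathway genes were called, and Serpina3n, Cebpd and Zfp36 had adjusted p-values of 0.0597, 0.0979 and 0.144. No library correlated best with its own number. The paired exact test of the ratios could not go below 0.25. Of the 45 pairs of genes, 41 in each genotype kept their order of mean levels with coding length in place of transcript length, and with the length of all exons, chosen after seeing the data, 44 in OsxCre and 43 in OsxCre;Stat3fl/fl. TTCNNNGAA was found for 1 gene in the RefSeq windows and for 2 with GENCODE starts, a choice made after seeing the data. The causes of these changes were not tested. With 7 to 11 counts of Osm and 1 to 4 of Il6 per library, only large differences could be seen.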
